A study of Arabidopsis thaliana with 16 samples.

Results

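Bases of mRNAs that lay under a protein protected site (PPS) in control-treated Arabidopsis leaf nuclei were compared with the other scored bases of the same transcript and the same region. A PPS is a stretch of RNA that a nuclease cut less often when proteins were present than after they had been digested. A base was taken as bound when it lay under a PPS of the replicate 1 list or the replicate 2 list, on either strand, and as unbound when no PPS of either list covered it. With 1 transcript for each of 10,003 genes, 1,616,676 of 16,224,830 scored bases were bound. Of these, 1,300,842 lay under a PPS of the replicate 1 list and 995,592 under a PPS of the replicate 2 list.

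The control-treated samples were rosette leaves of 4-week-old plants of the Columbia-0 ecotype that carry UBQ10:NTF and ACT2p:BirA, grown without added salt. These transgenes put a biotin tag on the nuclear envelope, so that nuclei could be pulled down with streptavidin beads. There were 2 replicates with 4 libraries each, made with an RNase that cuts double-stranded RNA (dsRNase) or one that cuts single-stranded RNA (ssRNase), either with proteins in place (footprinting) or after their digestion (structure-only). Scores of salt-treated leaves of the same line were used only as a second reading at the same bases.

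RNA-binding proteins (RBPs) recognize short sequences, paired or unpaired stretches of RNA, or both. The folding of an mRNA can expose or hide such sites, and a bound protein can itself hold RNA open or closed. In a nuclear mRNA the 5' UTR, the coding sequence (CDS) and the 3' UTR are all open to RBPs, among them splicing regulators such as SR proteins. In PIP-seq the dsRNase leaves single-stranded RNA and the ssRNase leaves double-stranded RNA. The structure score contrasts both after protein removal and is positive where a base is more often double-stranded than the mean of its transcript.

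Some limits of the tables bear on every value. The structure score has 1 value per base with both replicates merged, and the PPS lists of both replicates held 15,442 calls with the same position and score, which were 43.5% of the replicate 1 list and 55.0% of the replicate 2 list. The lists are therefore not independent, no test over replicates could be made, and an SD or SEM over transcripts describes only how transcripts differ. The 4 structure-only libraries served both as the background for calling the PPSs and as the source of the structure score, so the part that these shared libraries have in a difference cannot be told apart from that of binding. The read depth behind each value is unknown here, because the tables hold no counts.

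The sites with the largest contrast between a PPS and its surroundings are shown first. Of PPSs of 25 to 60 nt that lay within 1 CDS exon, stood at the same position in both lists and were scored at every base, 1,993 were dsRNase sites and 2,402 were ssRNase sites. The mean score of the site was below that of the 50 nt on each side for 1,395 (70.0%) of the dsRNase sites and for 1,436 (59.8%) of the ssRNase sites. Over all CDS sites compared with the unbound bases within 50 nt, these shares were 61.3% and 64.2%, in the opposite order. The 3 lowest and the 3 highest of each RNase are given here as mRNA sequence, read 5' to 3' from the reference genome at TAIR10 coordinates. Each run is the whole site or its central 30 nt. Capitals mark bases with a score above 0, that is, above the mean of the transcript, and lower case marks the others. These sites were chosen for their scores, so the scores are a description. Of the 12 sites, 5 were called on the strand of the mRNA and 7 on the opposite strand, namely those of AT1G06580, KIN10, LD, AT3G21215, AT1G04300, AT1G30820 and AT1G33420. For these 7 the run is the mRNA across from the call, whose score was compared, and not the strand that the list gives.

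The 3 lowest dsRNase sites lay in JAZ11 (AT3G43440), a repressor of jasmonate signalling, in AT1G06580, a pentatricopeptide repeat protein, and in KIN10 (AT3G01090), a catalytic subunit of the SnRK1 energy-sensing kinase.
JAZ11, chr3:15369157-15369186, plus strand: ggugggaguuuuagcguauuugaugguauu
AT1G06580, chr1:2014680-2014709, minus strand: aaagcauuggugagacuggaggauuugcaA
KIN10, chr3:33495-33524, minus strand: gaaggguagauugcaggaggaugaggcgag
In JAZ11 the site averaged −2.88 and the 50 nt on each side 1.51. In AT1G06580 the site averaged −2.93 and its sides 1.197. In KIN10 the site averaged −3.18 and its sides 0.914. The JAZ11 and KIN10 sites held no base above 0, whereas AT1G06580 held 5 of 38.

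The 3 highest dsRNase sites lay in ATSTE24 (AT4G01320), a CAAX protease of the M48 family, in TRM15 (AT4G00440), and in AAO3 (AT2G27150), the aldehyde oxidase that makes abscisic acid (ABA) from abscisic aldehyde.
ATSTE24, chr4:546646-546675, plus strand: uguACAUUUUUGAGACGUAUUUGGAUCUGA
TRM15, chr4:196867-196896, plus strand: GUUGACAUUGAGGAUGAAACUGCUAACGAA
AAO3, chr2:11605915-11605944, plus strand: AGUCAGGUUCCGUGACAUGGAACAUACUCA
In ATSTE24 the site averaged 3.10 and its sides 0.121. In TRM15 the site averaged 2.53 and its sides −0.419. In AAO3 the site averaged 1.93 and its sides −0.909. These sites were the reverse of the JAZ11 and KIN10 sites, with 34 of 44, 51 of 51 and 43 of 46 bases above 0.

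The 3 lowest ssRNase sites lay in LD (AT4G02560), the homeodomain protein LUMINIDEPENDENS of the autonomous flowering pathway, in AT2G05250, a DNAJ-domain protein, and in AT3G21215, a protein with RNA recognition motifs.
LD, chr4:1125142-1125171, minus strand: ugcaagagaaaacagauugauuggcaugua
AT2G05250, chr2:1915301-1915330, minus strand: uacaugccugggacugggacugggacgggg
AT3G21215, chr3:7443433-7443462, minus strand: aaacgaagaagaauugaggagccuguugag
In LD the site averaged −1.74 and its sides 1.89. In AT2G05250 the site averaged −1.90 and its sides 1.70. In AT3G21215 the site averaged −2.25 and its sides 1.06. None of the bases of these 3 sites had a score above 0.

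The 3 highest ssRNase sites lay in AT1G04300, a TRAF-like protein, in AT1G30820, a CTP synthase, and in AT1G33420, a PHD zinc finger protein.
AT1G04300, chr1:1148836-1148865, minus strand: UCUGGUAUUAAUGGCUACACCGAGUUCAGG
AT1G30820, chr1:10946489-10946518, minus strand: CAGAUGCGUAUAAAGCUGCUUGGAAGUUGC
AT1G33420, chr1:12121771-12121800, minus strand: GAAACUUUAUUGCACCCACAAACCAUGGCC
In AT1G04300 the site averaged 2.43 and its sides −1.15. In AT1G30820 the site averaged 2.47 and its sides −1.10. In AT1G33420 the site averaged 2.37 and its sides −1.17. Strongly scored sites in both directions thus occurred with both RNases, and the direction of the average site was found over all transcripts.

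PPSs covered the CDS more than the UTRs. Bound bases made up 5.68% of the scored bases in 5' UTRs, 11.3% in CDSs and 4.61% in 3' UTRs. A bound scored base was present in the 5' UTR of 1,354 of 9,716 genes, in the CDS of 5,759 of 10,003 genes and in the 3' UTR of 1,227 of 9,898 genes. Nearly every base under a PPS had a score, from 98.0% in 3' UTRs to 99.8% in CDSs. Over all bases of the 15,145 deposited transcripts, 88.4% had a score. Regions with at least 20 scored bases on each side entered the comparison, which kept 66,467 bound bases in 5' UTRs, 1,445,927 in CDSs and 93,508 in 3' UTRs.

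Bound bases were less structured than unbound bases in all 3 regions. In the 5' UTR the mean score was −0.331 in bound and −0.0254 in unbound bases, a difference of −0.306 ± 1.08 (SD, n = 961 transcripts). In the CDS it was −0.251 in bound and 0.0820 in unbound bases, a difference of −0.333 ± 0.758 (SD, n = 5,684). In the 3' UTR it was −0.325 in bound and −0.0442 in unbound bases, a difference of −0.281 ± 1.05 (SD, n = 1,039). The regions gave similar means although they differed in how often they were bound. The bound mean was the lower one in 601 of 961 5' UTRs (62.5%), 4,091 of 5,684 CDSs (72.0%) and 647 of 1,039 3' UTRs (62.3%). The middle 80% of transcripts ran from −1.64 to 0.992 in 5' UTRs, from −1.199 to 0.465 in CDSs and from −1.54 to 0.978 in 3' UTRs, so that single transcripts went both ways.

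**Figure D1:**
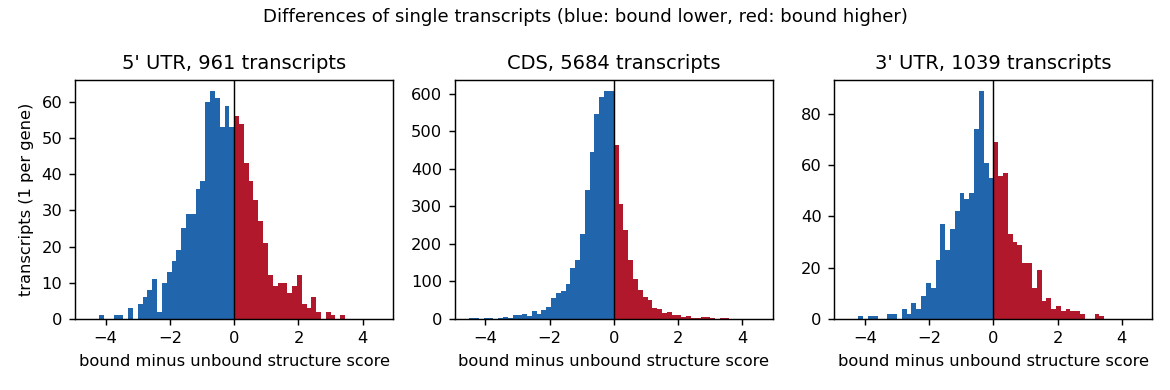
Histograms of the bound minus unbound structure score of single transcripts (x axis, score units; y axis, number of transcripts, 1 per gene), with 1 panel for each mRNA region and both lists together. Blue bars are transcripts whose bound mean was lower and red bars those whose bound mean was higher; blue holds 601 of 961, 4,091 of 5,684 and 647 of 1,039 transcripts.

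Each replicate list gave the same direction. In these values of 1 list, bases under no PPS of that list counted as unbound, also where the other list had a PPS. With the replicate 1 list the differences were −0.288 ± 0.0390 in 5' UTRs (SEM, n = 760), −0.322 ± 0.0110 in CDSs (SEM, n = 4,982) and −0.276 ± 0.0366 in 3' UTRs (SEM, n = 830). With the replicate 2 list they were −0.402 ± 0.0411 (SEM, n = 691), −0.449 ± 0.0117 (SEM, n = 4,356) and −0.385 ± 0.0388 (SEM, n = 704) in the same regions. The replicate 2 list thus gave the wider gap in every region. The SD between the lists was 0.0807 in 5' UTRs, 0.0897 in CDSs and 0.0767 in 3' UTRs, smaller than each difference. Of 3,651 CDSs that both lists measured, the bound mean was lower with both lists in 2,544, higher with both in 541 and of opposite sign in 566. In 970 of them the value was identical, since both lists held the same calls.

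Over all RNases together, the gap was widest at bases that both lists covered. CDS bases covered by both lists differed from unbound bases by −0.519 ± 0.0138 (SEM, n = 3,349 transcripts). CDS bases covered only by the replicate 1 list differed by −0.168 ± 0.0141 (n = 3,037), and those covered only by the replicate 2 list by −0.360 ± 0.0161 (n = 2,385). The 5' UTR ran in the same order, with −0.451 for both lists, −0.106 for the replicate 1 list alone and −0.382 for the replicate 2 list alone. The 3' UTR did too, with −0.451, −0.127 and −0.316 in that order of lists. Single CDS sites set against the unbound bases within 50 nt did not keep this order. Calls at the same position in both lists gave −0.377, replicate 1 calls alone −0.178 and replicate 2 calls alone −0.393. For dsRNase sites these values were −0.577, −0.142 and −0.390, and for ssRNase sites −0.255, −0.258 and −0.377.

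The direction was the same for sites of each RNase, but the RNases covered in part different genes. In the replicate 1 list, ssRNase calls of either strand lay almost only in genes on the minus strand. Its dsRNase calls on the minus strand lay almost only in genes on the plus strand. The means by RNase are therefore not from the same genes. In the CDS, dsRNase sites averaged −0.336 and unbound bases 0.0840, a difference of −0.420 ± 0.0131 (SEM, n = 4,214 transcripts). ssRNase sites averaged −0.186 in the CDS and unbound bases 0.0962, a difference of −0.282 ± 0.0125 (SEM, n = 3,178). With the lists together, sites called with both RNases had the widest gap of the 3 classes in the CDS, with −0.414 in bound and 0.151 in unbound bases and a difference of −0.565 ± 0.0234 (SEM, n = 926). In the 5' UTR, dsRNase and ssRNase sites gave −0.322 and −0.321, and sites called with both RNases −0.517. In the 3' UTR these classes gave −0.362, −0.204 and −0.440. With the replicate 2 list alone, dsRNase sites had a wider gap than sites called with both RNases, with −0.593 and −0.573 in CDSs, −0.492 and −0.452 in 5' UTRs, and −0.544 and −0.368 in 3' UTRs. All classes were below 0 with each list alone as well, between −0.593 for CDS dsRNase sites of the replicate 2 list and −0.173 for 3' UTR ssRNase sites of the replicate 1 list.

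**Figure D2:**
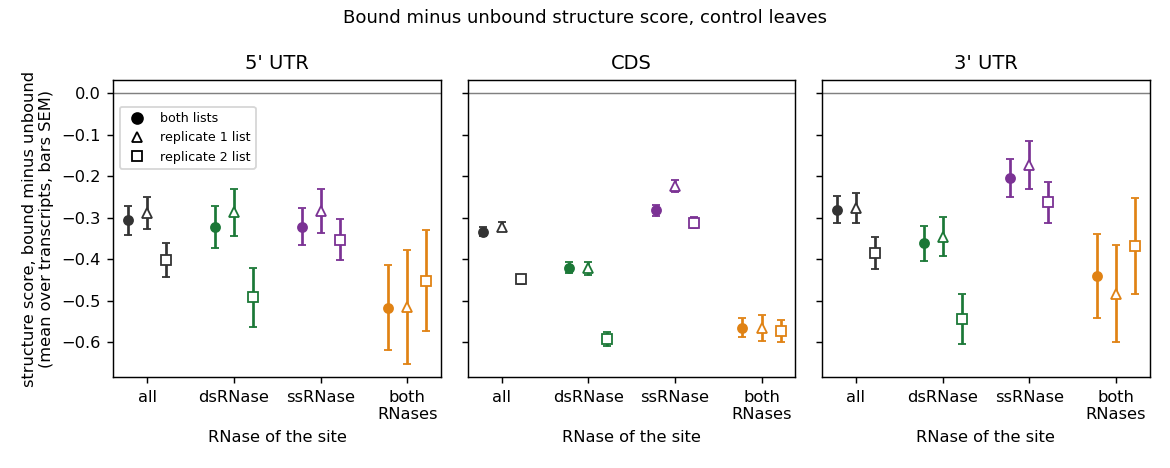
Mean bound minus unbound structure score (y axis, score units) by the RNase of the site (x axis), with 1 panel for each mRNA region. Filled circles are both lists together, triangles the replicate 1 list and squares the replicate 2 list, with bars for the SEM over transcripts; every point lies below 0, from −0.593 to −0.173.

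dsRNase and ssRNase sites of the same CDS were also set against each other. With both lists together, 1,444 CDSs had at least 20 scored bases under each kind, which averaged −0.362 at dsRNase sites and −0.124 at ssRNase sites, a difference of −0.238 ± 0.0266 (SEM). The dsRNase bases were the lower ones in 57.2% of these CDSs. The size of this contrast differed between the lists, with −0.538 ± 0.0383 (SEM, n = 613) for replicate 1 and −0.151 ± 0.0315 (SEM, n = 1,030) for replicate 2. In 3' UTRs the contrast was −0.376 (n = 18) with the replicate 1 list and 0.141 (n = 38) with the replicate 2 list, and the lists gave opposite signs there.

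The salt-treated structure score gave a reading at the same bases from structure-only libraries that had not been used to call the control sites. On that score, bases under control PPSs averaged −0.280 in 5' UTRs and unbound bases −0.0510, a difference of −0.229. In CDSs bound bases averaged −0.125 and unbound bases 0.105, a difference of −0.230. In 3' UTRs bound bases averaged −0.404 and unbound bases −0.219, a difference of −0.185. The gap was narrower than on the control score in each region, and it had the same sign. For CDS dsRNase sites it was −0.332 and for CDS ssRNase sites −0.138, against −0.420 and −0.282 on the control score. The salt-treated libraries come from other plants in another condition, so the effects of the treatment and of the shared libraries cannot be told apart in these values.

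At CDS sites the mean score was close to 0 or above it outside the site and lower inside it. A total of 26,677 of 48,013 distinct nuclear calls lay wholly within 1 region of 1 spliced transcript, and 24,247 of these were in a CDS. At CDS dsRNase sites the mean score was 0.0390 at 50 nt before the 5' edge and −0.0397 at 1 nt before it. It was −0.0979 at the first base inside that edge, −0.243 at 10 nt and −0.340 at 25 nt. At CDS ssRNase sites the corresponding means were 0.127 and 0.0458 outside the 5' edge and −0.0560, −0.168 and −0.254 inside it. The 3' edge mirrored this course. There, dsRNase sites had −0.327 at 25 nt inside, −0.0887 at the last base, −0.00270 at 1 nt outside and 0.0511 at 50 nt outside, and ssRNase sites had −0.276, −0.0905, 0.00195 and 0.108 at these positions. Outside bases that lay under another PPS were left out.

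**Figure D3:**
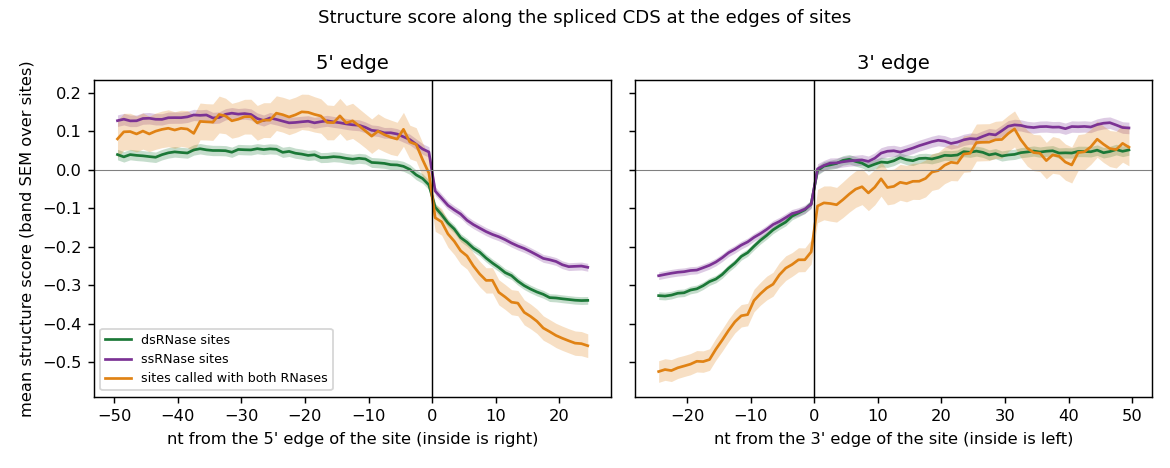
Mean structure score (y axis, score units) against the distance in nt from the 5' edge and from the 3' edge of CDS sites along the spliced transcript (x axis), for dsRNase sites, ssRNase sites and sites called with both RNases. Bands are the SEM over sites; for dsRNase sites the mean runs from 0.0390 at 50 nt outside the 5' edge to −0.340 at 25 nt inside it.

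Single sites gave the same direction against their own surroundings. CDS sites averaged −0.230 and the unbound bases within 50 nt of them 0.0633, a difference of −0.293 ± 0.00633 (SEM over sites), and 63.0% of the sites were the lower ones. By RNase, CDS dsRNase sites differed by −0.277 (61.3% lower) and CDS ssRNase sites by −0.295 (64.2% lower). The wider gap of dsRNase sites in the means over transcripts was thus not seen over single sites. The means by distance from a CDS site were 0.0202 at 1 to 10 nt, 0.0612 at 11 to 25 nt and 0.0798 at 26 to 50 nt. In 5' UTRs the sites averaged −0.347 and their flanks −0.0693, a difference of −0.278 ± 0.0368 (SEM). In 3' UTRs the sites averaged −0.328 and their flanks 0.0352, a difference of −0.363 ± 0.0290 (SEM). Neighbouring sites share flanking bases, so sites are not independent of each other.

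Over both RNases, CDS sites with a higher enrichment score differed more from their flanks. Sites were split at the quartiles of the score, 6.81, 8.14 and 10.8. Those under 6.81 differed from their flanks by −0.182 ± 0.0137 (SEM), those from 6.81 to 8.14 by −0.271 ± 0.0125, those from 8.14 to 10.8 by −0.307 ± 0.0120, and those of 10.8 or more by −0.397 ± 0.0123. From the lowest to the highest class, dsRNase sites gave −0.121, −0.311, −0.299 and −0.438. ssRNase sites gave −0.335, −0.232, −0.298 and −0.338 in that order, and thus no wider gap at higher scores. Sites under 30 nt differed from their flanks by −0.166 ± 0.0206 and those of 30 to 59 nt by −0.320 ± 0.00895. Those of 60 to 99 nt differed by −0.276 ± 0.0114 and those of 100 nt or more by −0.322 ± 0.0188. From the shortest to the longest class, ssRNase sites gave −0.220, −0.292, −0.294 and −0.357, and dsRNase sites −0.140, −0.330, −0.220 and −0.201. By GC content, sites under 41.1% GC differed by −0.267 and those from 41.1% to 45% by −0.320. Those from 45% to 49.1% differed by −0.317 and those of 49.1% or more by −0.270. The RNases differed here too. With rising GC, ssRNase sites gave −0.215, −0.292, −0.329 and −0.333, and dsRNase sites −0.287, −0.324, −0.288 and −0.206.

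The strand of a call also went with the size of the gap. In the deposited lists, 11,691 of the compared CDS sites were on the strand of the transcript and 11,305 on the opposite strand. Sites on the strand of the transcript differed from their flanks by −0.411 ± 0.00914 (SEM), and those on the opposite strand by −0.171 ± 0.00858 (SEM). For ssRNase sites these values were −0.376 and −0.141, and for dsRNase sites −0.452 and −0.165. Sites called with both RNases had −0.486 and −0.467. Whether calls lay on the strand of the transcript went with the list, the RNase and the call strand. In some of these classes it also changed in long stretches along the chromosomes. In the first 1 Mb of chromosome 1, 0% of 145 dsRNase minus-strand calls of the replicate 1 list lay on the strand of the transcript. The replicate 2 list gave 90.9% of 33 such calls there. In windows of 1 Mb with at least 20 CDS sites of a list, an RNase and a call strand, at least 90% of the sites were on the strand of the transcript in 320 of 618 windows, at most 10% were in 282, and 16 lay between these limits. Of 245 windows of the opposite-strand kind with a next window, 234 were followed by one of that kind. The replicate 1 list had 205 such windows of 342 and the replicate 2 list 77 of 276. Whether these stretches hold antisense RNAs or calls with a swapped strand was not tested, so the strand of a call is given as the lists have it.

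Bound bases were richer in purines. In the CDS, bound bases were 29.4% A and 26.7% G, against 28.1% A and 24.1% G in unbound bases of the same genes. Correspondingly, bound CDS bases held 18.8% C and 25.1% U, against 20.6% C and 27.2% U in unbound bases. In UTRs the widest shifts were of U and G. Bound bases held 29.7% U in 5' UTRs and 31.4% in 3' UTRs, against 34.7% and 35.3% in the unbound bases of these regions. G made up 23.5% of bound and 18.6% of unbound 5' UTR bases, and 23.7% of bound and 20.0% of unbound 3' UTR bases.

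Each of the 4 bases scored lower when bound. In the CDS, bound A averaged −0.234 and unbound A 0.0696. Bound C averaged −0.0564 and unbound C 0.189. Bound G averaged −0.356 and unbound G −0.0833. Bound U averaged −0.149 and unbound U 0.112. G was thus the lowest and C the highest base in both states. Taking the difference within each base and weighting by the composition of the bound bases left −0.291 in 5' UTRs, −0.326 in CDSs and −0.275 in 3' UTRs, close to the values over all bases. By codon position, bound CDS bases averaged −0.212 at positions 1, 2 and 3, and unbound bases 0.0692, 0.0689 and 0.0687. Neighbouring bases share reads, so these means cannot show whether there is a codon periodicity.

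The gap ran along the whole CDS. When the CDSs that held a bound scored base were cut into 10 equal parts, bound bases made up between 14.7% of part 10 and 17.7% of part 4. Within a part, the bound minus unbound difference lay between −0.240 ± 0.0222 in part 2 and −0.325 ± 0.0245 in part 9 (SEM). Around the start codon, bound bases averaged −0.344 and unbound bases −0.0131 in the 100 nt before it, and bound bases averaged −0.218 and unbound bases 0.0284 in the first 100 nt of the CDS. Around the stop codon, bound bases averaged −0.251 and unbound bases 0.0250 in the last 100 nt of the CDS, and bound bases averaged −0.302 and unbound bases −0.0243 in the 100 nt after it.

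Pairing computed from sequence alone did not follow the measured score. Local folding with ViennaRNA gave a mean pairing probability of 46.3% for bound and 46.2% for unbound CDS bases, a difference of 0.0905 ± 0.0761 percentage points (SEM, n = 5,684 transcripts). In 5' UTRs it was 43.9% for bound and 38.1% for unbound bases, a difference of 5.83 ± 0.381 points (SEM, n = 961), with the bound mean the lower one in 30.3% of transcripts. In 3' UTRs it was 44.4% for bound and 43.3% for unbound bases, a difference of 1.17 ± 0.259 points (SEM, n = 1,039). For 5' UTR ssRNase sites the computed pairing was 44.7% in bound and 37.1% in unbound bases. The prediction was therefore higher in bound 5' UTR bases, where the measured score was lower. Within CDSs the median correlation of computed pairing with the score over bases was 0.0134 across 5,799 transcripts, given as a description because neighbouring bases share reads and sequence.

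The genes at both ends of the CDS order were taken from 2,285 genes with at least 100 scored bases on each side and the same sign with both lists. The bound mean was lower in 1,970 of them and higher in 315. This choice leaves out genes of mixed sign, and over all measured CDSs the bound mean was lower in 4,091 of 5,684 (72.0%). ATCHR12 (AT3G06010), a SNF2/Brahma-type chromatin remodeller, had the lowest value, with −2.82 in 113 bound bases and 0.236 in 2,716 unbound bases. NdhS (AT4G23890), a subunit of the chloroplast NAD(P)H dehydrogenase-like complex, had −2.34 in bound and 0.214 in unbound bases. UGT85A1 (AT1G22400), a UDP-glycosyltransferase, had −2.19 in bound and 0.331 in unbound bases. YAO (AT4G05410), a nucleolar WD40 protein, had −2.10 in bound and 0.385 in unbound bases. AT2G38870, a protease inhibitor of the potato inhibitor I type, had −1.28 in bound and 1.15 in unbound bases. Its difference was −0.489 with the replicate 1 list and −2.43 with the replicate 2 list, so its place at this end rests on the replicate 2 list. All 5 were lower in bound bases on the salt-treated score too, by between −2.73 in YAO and −0.962 in UGT85A1. For ATCHR12 and NdhS both lists gave the same value, so the sign could not differ between the lists.

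At the other end, AT5G50840, an alpha-taxilin-like protein, had 1.48 in 101 bound bases and −0.105 in 1,000 unbound bases. EMB140 (AT4G24270) had 1.37 in bound and −0.125 in unbound bases, a difference of 1.49 with the replicate 1 list and 0.599 with the replicate 2 list. AT3G06435, which encodes an uncharacterized protein, had 1.62 in bound and 0.213 in unbound bases. AT1G11660, an Hsp70-family protein, had 1.23 in bound and −0.0998 in unbound bases. AT2G16510, a proteolipid subunit of the vacuolar H+-ATPase, had 0.699 in bound and −0.603 in unbound bases, with the same difference from both lists. On the salt-treated score the difference was above 0 in AT3G06435 (1.95), AT2G16510 (0.607) and EMB140 (0.538), and below 0 in AT5G50840 (−0.147) and AT1G11660 (−1.22).

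In the 5' UTR, 254 genes had at least 50 scored bases on each side and 1 sign with both lists, 176 lower and 78 higher in bound bases. Over all measured 5' UTRs, the bound mean was lower in 601 of 961 (62.5%). AT4G12590, a subunit of the ER membrane protein complex, had −1.64 in 50 bound bases and 1.92 in 58 unbound bases. AT2G26190, a calmodulin-binding protein, had −0.426 in bound and 2.33 in unbound bases. AT5G55970, a RING/U-box protein, had −2.44 in bound and 0.305 in unbound bases, but its difference was 0.150 on the salt-treated score. Near the upper end, AFP3 (AT3G29575), a protein that binds ABI5-type transcription factors, had 1.91 in bound and −0.0306 in unbound bases, but a difference of −0.660 on the salt-treated score. AT2G23680, of the WCOR413 cold acclimation family, had 0.715 in bound and −1.07 in unbound bases. These values rest on 50 to 111 bound bases per gene. For AT4G12590, AT2G26190 and AFP3 both lists gave the same value.

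In the 3' UTR, 343 genes met the same limits, 241 lower and 102 higher in bound bases. Over all measured 3' UTRs, the bound mean was lower in 647 of 1,039 (62.3%). PATL2 (AT1G22530), a patellin with a lipid-transfer domain, had −3.84 in 63 bound bases and −0.232 in 173 unbound bases. LPA3 (AT1G73060), which takes part in photosystem II assembly, had −2.05 in bound and 1.08 in unbound bases. AT3G27110, a peptidase of the M48 family, had −2.88 in bound and −0.168 in unbound bases. At the upper end, LSM3A (AT1G21190), a subunit of the LSM complexes of splicing and mRNA decay, had 3.10 in bound and −0.263 in unbound bases. AT3G12390, an alpha subunit of the nascent polypeptide-associated complex, had 1.87 in bound and −1.43 in unbound bases. AT4G02620, a subunit of the vacuolar ATPase, had 2.18 in bound and −0.447 in unbound bases. For each of these 6 genes both lists gave the same value.

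P5CS1 (AT2G39800), the enzyme at the first step of proline synthesis from glutamate and a marker of the salt response, lies at chr2:16598072-16603061 on the minus strand. Its CDS had −0.395 in 803 bound bases and 0.124 in 1,351 unbound bases, a difference of −0.519. The difference was −0.741 with the replicate 1 list and −0.519 with the replicate 2 list, and −0.306 on the salt-treated score. Of its sites, 12 lay wholly within the spliced CDS. The lowest was an ssRNase site of both lists at 646 to 743 nt from the start codon, which averaged −1.22 while its flanks averaged 0.893, and which the lists place on the strand opposite to the mRNA. A second ssRNase site of both lists at 2,032 to 2,072 nt, on the strand of the mRNA, averaged −1.14, with −0.699 in its flanks. The highest was a dsRNase site of the replicate 2 list at 723 to 762 nt, with 0.537 in the site and 0.0942 in its flanks. It shares the bases from 723 to 743 nt with the lowest site. In the 5' UTR of P5CS1, 53 bound bases averaged 0.159 and 47 unbound bases −0.112, at a dsRNase site of the replicate 2 list alone. In its 3' UTR, 92 bound bases averaged 0.440 and 235 unbound bases 0.422. Against all unbound bases of a region, the bound mean of P5CS1 was thus the lower one in the CDS alone. Against its flanks, the 3' UTR site was lower too.

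**Figure D4:**
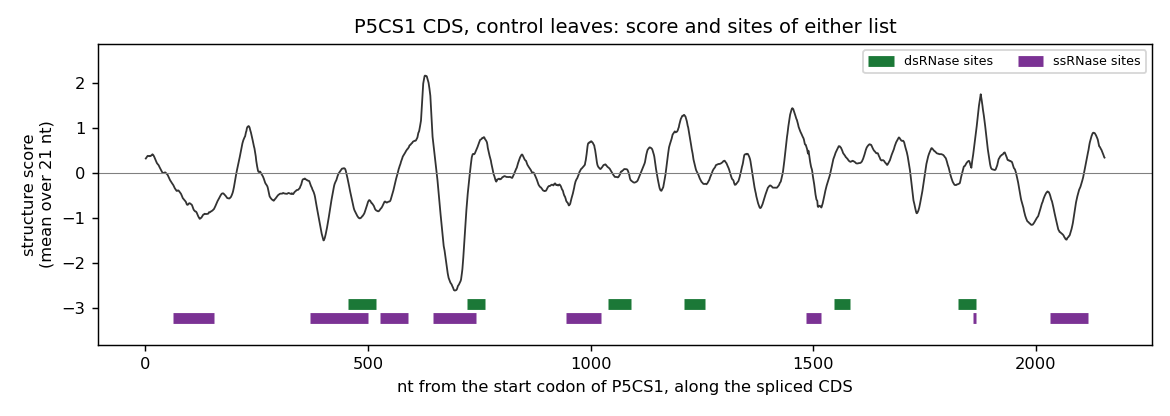
Structure score of the P5CS1 CDS (y axis, mean over 21 nt, score units) against the distance in nt from the start codon along the spliced CDS (x axis), with bars for dsRNase sites and ssRNase sites of either list. The lowest dip lies under the ssRNase site at 646 to 743 nt, which averaged −1.22.

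The 4 groups of genes were read against the 72.0% of all CDSs in which bound bases were lower and the median difference of −0.309 over all 5,684 CDSs. The photosystem and light-harvesting genes are nuclear genes that encode chlorophyll-binding antenna proteins and other subunits of the photosystems. Of 34 genes, 26 could be measured, and the bound mean was lower in 15 and higher in 11, with a median difference of −0.0930. The lowest were PSAD-2 (AT1G03130), with −0.883 in bound and 0.535 in unbound bases, and PSAG (AT1G55670), with −0.422 in bound and 0.718 in unbound bases. On the salt-treated score PSAD-2 had a difference of −0.471 and PSAG one of 0.0601, of opposite sign to its control value. The highest were LHCB2.2 (AT2G05070), with 0.840 in bound and 0.126 in unbound bases, and LHCB4.1 (AT5G01530), with 0.0767 in bound and −0.327 in unbound bases. PSAD-2 and PSAG are subunits of photosystem I, and LHCB2.2 and LHCB4.1 are antenna proteins of photosystem II.

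The Rubisco and Calvin cycle genes fix carbon dioxide. Of 15 genes, 12 could be measured, and the bound mean was lower in 11 and higher in 1, with a median of −0.250. GAPA (AT3G26650), a subunit of the chloroplast glyceraldehyde 3-phosphate dehydrogenase, had −0.962 in bound and −0.0176 in unbound bases. Its difference was −0.944 with the replicate 1 list and 0.0720 with the replicate 2 list, so the lists gave opposite signs. RBCS2B (AT5G38420), a small subunit of Rubisco, had −0.322 in bound and 0.515 in unbound bases, with a difference of −0.940 for the replicate 1 list and −0.0802 for the replicate 2 list. PGK1 (AT3G12780), phosphoglycerate kinase, was the 1 gene with the higher bound mean, 0.107 in bound and 0.00138 in unbound bases. RBCS1A (AT1G67090) had −0.0411 in bound and 0.0339 in unbound bases. Rubisco small subunit, LHCB1, LHCB2 and SR genes occur in similar copies, and the mapping let a read match several places, so values of these genes are uncertain.

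The group of SR, RS, GRP and PTB proteins holds splicing regulators and other nuclear RBPs. Of 23 genes, 20 could be measured, with the bound mean lower in 10 and higher in 10 and a median of −0.0482. SR34a (AT3G49430), an SR splicing factor, had −0.532 in bound and 0.448 in unbound bases, on the replicate 1 list alone, and a difference of 0.107 on the salt-treated score. RSZ22a (AT2G24590), an SR protein with a zinc knuckle, had −0.386 in bound and 0.551 in unbound bases. At the other end, CCR1 (AT4G39260), the glycine-rich RNA-binding protein GRP8 of the circadian clock output, had 0.420 in bound and −0.842 in unbound bases, again on the replicate 1 list alone. RSZ21 (AT1G23860) had 0.521 in bound and 0.144 in unbound bases.

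The salt and ABA response genes include osmolyte enzymes, dehydrins, ion transporters and ABA signalling proteins. Of 26 genes, 20 could be measured in these control leaves, and the bound mean was lower in 17 and higher in 3, with a median of −0.286. RD22 (AT5G25610), a BURP-domain protein induced by ABA, had −0.467 in 683 bound bases and 0.363 in 496 unbound bases. ERD10 (AT1G20450), a dehydrin, had −0.210 in 631 bound bases and 0.599 in 152 unbound bases. COR15A (AT2G42540), a cold-regulated chloroplast protein, had 0.0994 in 53 bound bases and −0.939 in 367 unbound bases. SNRK2.3 (AT5G66880), a kinase of the ABA core pathway, had 0.188 in bound and −0.126 in unbound bases. COR15A and SNRK2.3 could be measured with the replicate 2 list alone. On the salt-treated score the differences of these 4 genes were −0.502, −0.690, 1.35 and 0.0635 in this order, with the same signs. The genes were chosen with results of these data known, and no test was made of a group against the others.

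**Figure D5:**
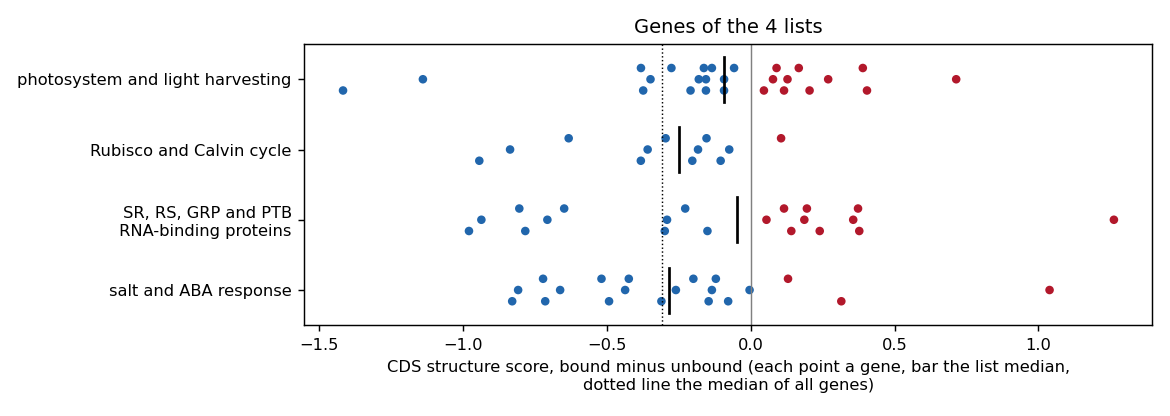
CDS bound minus unbound structure score (x axis, score units) of each measured gene in the 4 groups (rows). Blue points are below 0 and red points above 0, black bars are group medians (−0.0930, −0.250, −0.0482 and −0.286 from top to bottom), and the dotted line is the median over all CDSs, −0.309.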

How the data were processed

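PIP-seq libraries came from INTACT-purified nuclei of control-treated leaves, 2 replicates with 4 libraries each. Per the methods, the authors trimmed reads with cutadapt and mapped them to TAIR10 with TopHat2 2.0.10, randomly thinned the deeper library of a pair to the shallower one, and used their version of CSAR to call PPSs (false discovery rate 5%). The deposited enrichment score of a PPS is the authors' Poisson-based score. The deposited structure score (another unit, a standardized generalized log ratio, dsRNA-seq over ssRNA-seq, with both replicates merged, relative to the transcript mean) was given by the authors per spliced base.

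Here 685 of 15,145 transcripts without a CDS were left out, and the transcript with the most scored bases stood for its gene. Scores were read in genome order, since scores of overlapping isoforms on the minus strand then correlated at a median r of 1, against 0.247 when reversed. All 10,003 CDSs began with ATG in the reference, and no site passed a chromosome end. The 75 and 32 organelle sites of the replicate 1 and 2 lists were left out. Differences were means over transcripts with at least 20 scored bases on each side. For a subset of sites of both lists, unbound bases were those under no site at all. In differences over transcripts with 1 list alone, they were those under no site of that list. Bases under a site of the other list alone thus counted as unbound there. Pairing was computed with ViennaRNA 2.7.2 (window 80 nt, span 40 nt), with Python 3.11.15 and numpy 2.4.6. The steps were tested on simulated data.

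Named genes were the 5 highest and 5 lowest in the CDS, the 3 highest and 3 lowest in each UTR, the 2 highest and 2 lowest of each gene group, P5CS1 and the genes of the sites shown. A gene that these rules name is not reported here. The bases compared, the gene groups and these rules were chosen with earlier results of these data known. Alternatives changed the transcript, base minimum, average, score range, strand, site score or length, list, unbound bases, ends, base composition and score.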

Additional observations from a re-analysis of the deposited data

How the results depend on the processing

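The 5 differences (5' UTR, CDS, 3' UTR, and CDS with dsRNase or ssRNase sites) were recomputed under 18 alternatives each. All 90 values were below 0, from −0.593 to −0.122, and 76 moved by less than the SD between the lists. With sites on the strand of the transcript alone, the 5 differences were −0.397, −0.467, −0.396, −0.550 and −0.390 in that order. With sites on the opposite strand alone, the CDS difference was −0.237 and that of CDS ssRNase sites −0.122. On the salt-treated score, they were −0.230 in the CDS, −0.185 in the 3' UTR and −0.138 at CDS ssRNase sites. The cause of these shifts was not tested. Without replicate 1 or without replicate 2, the 5 differences lay from −0.402 to −0.288, from −0.449 to −0.322, from −0.385 to −0.276, from −0.593 to −0.422 and from −0.312 to −0.223. With calls identical in both lists left out, CDS dsRNase sites gave −0.323 and CDS ssRNase sites −0.339, the reverse of their order with all calls. No paired analysis was possible because the score merges both replicates, so that no fit over replicate numbers could be made. The read depth behind a score is unknown, so the counting error of a score cannot be given.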
